A study of Mus musculus with 12 samples.

Results

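The 10 genes described here respond to PPAR-alpha in mouse liver and were followed across 4 groups of fasted mice. They are Ppara itself, Cyp4a10, Cyp4a14, Acot1, Acot2, Acot3, Ehhadh, Vnn1, Pex11a and Angptl4. Members were the probe sets of the deposited table annotated to one of these gene symbols alone. All 10 genes were found, each with 1 such probe set, among 19938 genes measured.

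PPAR-alpha is a nuclear receptor that is activated by fatty acids and binds DNA as a heterodimer with RXR. In fasting liver, fatty acids released from fat tissue reach the receptor, which then raises the transcription of genes for fatty acid oxidation, peroxisomal metabolism and ketone production. Its best known DNA element is a direct repeat of the AGGTCA half-site with 1 base between the copies. SIRT3 is a protein deacetylase of the mitochondrion that acts on enzymes of the same oxidation pathways.

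The arrays held liver RNA from 129Sv mice aged 12 weeks. The 4 groups were SIRT3 wild-type mice on a standard diet, SIRT3 knockout mice on a standard diet, wild-type mice on a high-fat Western diet, and knockout mice on that diet, with 3 arrays in each. The Western diet held 42% fat and was started at weaning. Mice of every group, the controls included, had been fasted for 24 h, so no fed liver was there to measure an induction by fasting against. Sex is missing from the labels, as are the part of Sirt3 that was deleted, the cells in which it was deleted, and whether each array is 1 mouse. P-values therefore measure only the spread between these samples. RNA came from whole liver, in which fewer cells of a type and less RNA per cell cannot be told apart.

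Values are log2 probe set intensities, and a difference of 1 on this scale is a 2-fold change. Array medians lay between 6.34 and 6.47. The Sirt3 probe set read 8.97 to 9.13 in the wild type and 8.83 to 8.95 in the knockout on the standard diet, and 9.13 to 9.29 against 8.49 to 8.92 on the high-fat diet. The signal was thus lower on every knockout array of a diet but not lost, and without the position of the deletion it checks nothing about the labels. The mean of 12 hepatocyte markers, such as albumin and apolipoproteins, lay between 13.14 and 13.29 on all 12 arrays. One array stood apart from the rest. On replicate 1 of the knockout on the standard diet, 15 acute-phase genes lay on average 1.92 above the wild-type mean of that diet, against -0.05 to 0.64 on the other arrays. On the same array the difference from that mean was -1.68 for 8 male-biased liver genes, 1.93 for 5 female-biased genes and -1.22 for 3 Y-linked genes, lists chosen after their values were seen. On replicate 2 of the same group, 8 fat and muscle genes lay 1.07 above, against -0.09 to 0.13 elsewhere, and the Y-linked genes were at -0.46. In the mean of that group the muscle genes Acta1 and Ckm read 7.95 and 7.82, against 7.07 and 7.14 in the standard-diet wild type. The fat genes Adipoq, Plin1 and Lep differed less, at 4.30, 6.39 and 4.93 against 4.24, 6.34 and 4.82.

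Diet could not be separated from array handling. Values were missing from every standard-diet array, and from no high-fat array, for 335 probe sets. Any 2 arrays on the standard diet shared a median of 20 values identical to the last digit (11 to 31), any 2 on the high-fat diet shared 7 (2 to 15), and any 2 of different diets shared 0 (0 to 1). The labels do not say whether the diets were normalized in one run. Diet and run cannot be told apart in any comparison of diets below, while both comparisons of genotype lie within a diet.

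Promoter windows are shown for the thioesterase genes that are neighbours on chromosome 12 and for the receptor gene and Pex11a, which differed in opposite directions between the diets. They run from 250 bases before to 50 bases after the gene's start in RefSeq (build GRCm38.p6), 5′ to 3′ on the gene's strand. Capitals mark a copy of the PPAR half-site AGGTCA, on either strand.
Ppara, chr15:85735526-85735825, plus strand: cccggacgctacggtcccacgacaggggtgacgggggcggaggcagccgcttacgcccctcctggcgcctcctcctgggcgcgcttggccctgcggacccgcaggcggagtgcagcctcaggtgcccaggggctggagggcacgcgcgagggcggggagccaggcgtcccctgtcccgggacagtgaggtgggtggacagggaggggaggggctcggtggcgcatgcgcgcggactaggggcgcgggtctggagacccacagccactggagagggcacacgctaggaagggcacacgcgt
Acot2, chr12:83987611-83987910, plus strand: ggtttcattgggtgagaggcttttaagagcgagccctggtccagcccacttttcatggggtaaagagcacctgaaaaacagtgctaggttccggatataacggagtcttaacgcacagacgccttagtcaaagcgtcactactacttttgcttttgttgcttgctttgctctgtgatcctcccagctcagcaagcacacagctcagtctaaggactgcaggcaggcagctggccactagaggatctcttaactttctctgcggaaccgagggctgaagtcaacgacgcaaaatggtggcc
Acot1, chr12:84009252-84009551, plus strand: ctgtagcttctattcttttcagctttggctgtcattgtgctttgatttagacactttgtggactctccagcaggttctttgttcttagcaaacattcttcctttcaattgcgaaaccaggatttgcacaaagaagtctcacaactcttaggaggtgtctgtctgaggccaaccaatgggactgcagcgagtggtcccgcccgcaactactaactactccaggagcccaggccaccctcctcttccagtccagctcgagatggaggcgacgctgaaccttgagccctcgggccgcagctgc
Acot3, chr12:84051894-84052193, plus strand: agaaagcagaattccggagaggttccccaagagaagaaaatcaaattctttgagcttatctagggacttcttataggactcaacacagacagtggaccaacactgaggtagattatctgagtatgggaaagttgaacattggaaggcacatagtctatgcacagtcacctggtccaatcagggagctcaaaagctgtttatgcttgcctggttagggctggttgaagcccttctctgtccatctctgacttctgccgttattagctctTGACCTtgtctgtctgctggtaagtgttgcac
Pex11a, chr7:79743082-79743381, minus strand: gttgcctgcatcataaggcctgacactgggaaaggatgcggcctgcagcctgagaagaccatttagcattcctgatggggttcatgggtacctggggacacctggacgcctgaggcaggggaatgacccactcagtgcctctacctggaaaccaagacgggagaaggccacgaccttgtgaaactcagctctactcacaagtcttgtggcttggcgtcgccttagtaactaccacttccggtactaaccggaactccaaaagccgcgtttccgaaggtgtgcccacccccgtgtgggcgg

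The RefSeq table held windows for 6 of the 10 genes, those printed and Ehhadh. The direct repeat AGGTCANAGGTCA was searched on both strands with at most 2 of its 12 fixed letters different. It was found in 0 of the 6 genes and in 3.86% of all 32851 windows. The single half-site AGGTCA, searched without mismatch and counted also where it would lie inside the repeat, was found in the window of Acot3 alone, as TGACCT, against 16.3% of all windows. These letters are not in the other windows, which says nothing about binding of the receptor elsewhere. The Ppara window had a GC content of 74.7%, against a median of 52.7% over all windows. By gene order, Acot2, Acot1, Acot4, Acot3, Acot5 and Acot6 are neighbours on chromosome 12, and Cyp4a14, Cyp4a10, Cyp4a31 and Cyp4a32 are neighbours on chromosome 4.

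The comparison of genotypes asks whether the PPAR-alpha program of fasted liver differed in mice without SIRT3. No member passed the test in either diet. With limma, 0 of 10 members were called between genotypes on the standard diet, where 0.00502% of all genes were called, and 0 of 10 on the high-fat diet, where 0.00% were. At an unadjusted p under 0.05 the count was also 0 of 10 on both diets, against 9.73% and 2.86% of all genes. Knockout and wild-type arrays overlapped for all 10 genes on both diets, while 14.4% and 6.69% of all genes had groups that did not overlap. The median difference of the 10 genes, knockout minus wild type, was 0.06 on the standard diet and -0.01 on the high-fat diet, beside 0.04 and -0.02 over all genes. The 95% intervals lay within a 1.5-fold change either way for 9 of 10 genes on the standard diet, Acot3 being the exception, and for 8 of 10 on the high-fat diet, the exceptions being Acot3 and Vnn1.

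**Figure D1:**
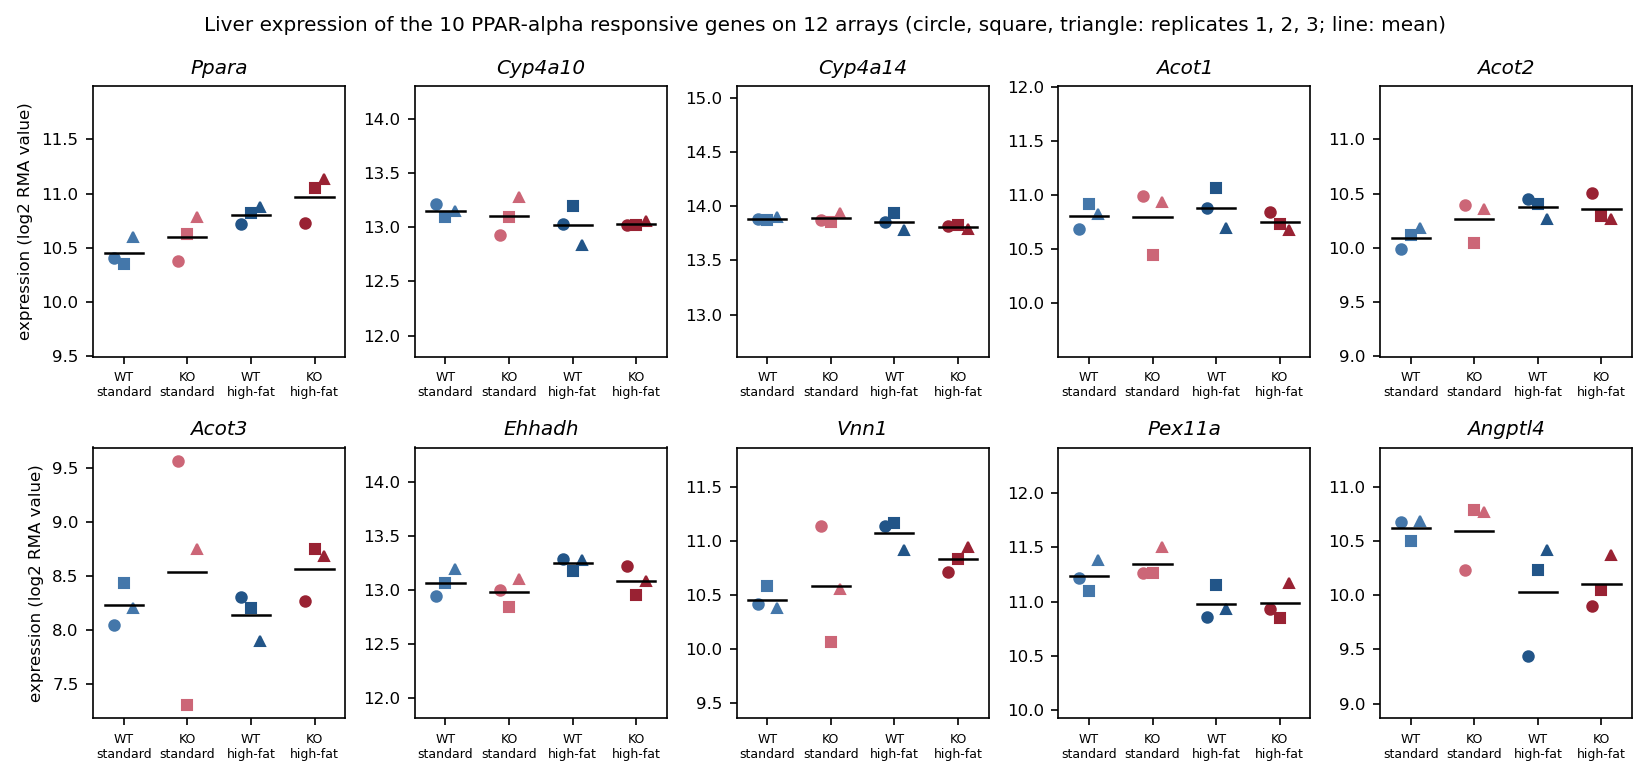
Log2 probe set intensity of each of the 10 genes on every array, by genotype and diet; each point is 1 array and each bar is the mean of 3. Cyp4a14 sits between 13.78 and 13.94 on all 12 arrays, while Acot3 spans 7.31 to 9.56 within the knockout on the standard diet.

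Ppara encodes the receptor itself. On the standard diet it read 10.40, 10.35 and 10.60 in the wild type and 10.38, 10.63 and 10.79 in the knockout. High-fat arrays read 10.72, 10.82 and 10.87 in the wild type and 10.73, 11.05 and 11.14 in the knockout. Genotypes overlapped on both diets, and 4 of the 6 high-fat arrays lay above every standard-diet array. Between genotypes it differed by 0.15 on the standard diet (SE 0.121, limma adjusted p = 0.688) and by 0.17 on the high-fat diet (SE 0.121, limma adjusted p = 1.00).

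Cyp4a10 and Cyp4a14 encode cytochromes P450 that hydroxylate fatty acids at their omega end, and both are classical markers of PPAR-alpha activity in mice. Cyp4a14 read 13.88, 13.87 and 13.90 in the wild type and 13.87, 13.86 and 13.94 in the knockout on the standard diet. Under high-fat feeding it read 13.85, 13.94 and 13.78 in the wild type and 13.82, 13.83 and 13.79 in the knockout. All 12 arrays lay close together and the genotypes overlapped. The genotype difference was 0.0051 on the standard diet (SE 0.0658, limma adjusted p = 0.985) and -0.05 on the high-fat diet (SE 0.0658, limma adjusted p = 1.00). The residual SD of Cyp4a14 was 0.0480, which only 0.602% of genes undercut, beside a median of 0.140 over all genes. Its values lay 0.80 to 1.59 below the highest value on the same array, near the top of the scale, and whether the probes still respond there was not tested.

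Cyp4a10 was nearly as bright. It read 13.22, 13.10 and 13.15 in the wild type and 12.93, 13.10 and 13.28 in the knockout on the standard diet. Under high-fat feeding the values were 13.03, 13.20 and 12.83 in the wild type and 13.02, 13.02 and 13.06 in the knockout. The genotypes overlapped on both diets, as did the diets within each genotype. The genotype difference was -0.05 on the standard diet (SE 0.0993, limma adjusted p = 0.871) and 0.01 on the high-fat diet (SE 0.0993, limma adjusted p = 1.00). A further probe set annotated jointly to Cyp4a10, Cyp4a31 and Cyp4a32 passed the test in none of the 6 comparisons over all probe sets, and these near-identical genes may share probes.

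The acyl-CoA thioesterases split fatty acyl-CoA into free fatty acid and CoA, Acot1 in the cytosol, Acot2 in the mitochondrion and Acot3 in the peroxisome. Acot1 read 10.68, 10.91 and 10.83 in the wild type and 10.99, 10.45 and 10.94 in the knockout on the standard diet. High-fat values were 10.88, 11.06 and 10.70 in the wild type and 10.85, 10.74 and 10.68 in the knockout. The lowest of the 12 arrays was replicate 2 of the knockout on the standard diet, and the groups overlapped. Acot2 read 9.98, 10.12 and 10.18 in the wild type and 10.40, 10.04 and 10.36 in the knockout on the standard diet. Under high-fat feeding it read 10.45, 10.40 and 10.27 in the wild type and 10.50, 10.29 and 10.26 in the knockout. In the wild type every high-fat array lay above every standard-diet array, a difference of 0.28 (SE 0.105) that was not called (limma adjusted p = 0.132).

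Acot3 had the widest spread of the 10 genes within one group. It read 8.05, 8.43 and 8.20 in the wild type and 9.56, 7.31 and 8.75 in the knockout on the standard diet. High-fat arrays gave 8.31, 8.21 and 7.90 in the wild type and 8.27, 8.75 and 8.68 in the knockout. Both the highest and the lowest of the 12 values came from the knockout on the standard diet, on replicates 1 and 2, and the remaining 10 arrays lay between 7.90 and 8.75. The residual SD was 0.601, above that of 99.7% of genes. The genotype difference on the standard diet was 0.31 (SE 0.371, limma adjusted p = 0.785), and without replicate 1 of the knockout it was -0.20. On the high-fat diet it was 0.43 (SE 0.371), was not called, and ran from 0.31 to 0.58 with single arrays left out. That SE pools the spread of all groups. The SD was 1.14 in the standard-diet knockout, and 0.21 and 0.26 in the high-fat wild type and knockout. Replicate 1 of the standard-diet knockout is the array with high acute-phase and female-biased genes. Replicate 2 of that group is the one with a high mean over the fat and muscle list. Their part in the spread of Acot3 was not tested.

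Ehhadh encodes the bifunctional enzyme of peroxisomal beta-oxidation. It read 12.95, 13.06 and 13.19 in the wild type and 12.998, 12.84 and 13.10 in the knockout on the standard diet. High-fat values were 13.29, 13.17 and 13.28 in the wild type and 13.22, 12.96 and 13.08 in the knockout. Ehhadh values lay 1.44 to 2.47 below the highest value on the same array, where the response of the probes was not tested. The knockout mean was the lower on both diets, with overlapping groups. The difference was -0.08 on the standard diet (SE 0.0923, limma adjusted p = 0.763) and -0.16 on the high-fat diet (SE 0.0923, limma adjusted p = 1.00).

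Pex11a encodes a peroxisomal membrane protein that takes part in peroxisome division. It read 11.22, 11.10 and 11.38 in the wild type and 11.27, 11.27 and 11.50 in the knockout on the standard diet. Under high-fat feeding the values were 10.86, 11.15 and 10.93 in the wild type and 10.94, 10.85 and 11.18 in the knockout. Of the 6 high-fat arrays, 4 lay below every standard-diet array. Between genotypes it differed by 0.11 on the standard diet (SE 0.112, limma adjusted p = 0.748) and by 0.0041 on the high-fat diet (SE 0.112, limma adjusted p = 1.00).

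Vnn1 encodes pantetheinase, an ectoenzyme that frees pantothenic acid and cysteamine. It read 10.42, 10.58 and 10.38 in the wild type and 11.14, 10.06 and 10.56 in the knockout on the standard diet. High-fat arrays read 11.14, 11.16 and 10.92 in the wild type and 10.72, 10.83 and 10.95 in the knockout. As for Acot3, the extremes of the standard-diet arrays were replicates 1 and 2 of the knockout. Vnn1 had a residual SD of 0.288, above that of 96.7% of genes. The genotype difference was 0.13 on the standard diet (SE 0.186, limma adjusted p = 0.828) and -0.24 on the high-fat diet (SE 0.186, limma adjusted p = 1.00). Without replicate 1 of the knockout the first of these was -0.15.

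Angptl4 encodes a secreted inhibitor of lipoprotein lipase. It read 10.67, 10.50 and 10.69 in the wild type and 10.24, 10.79 and 10.77 in the knockout on the standard diet. Under high-fat feeding it read 9.44, 10.23 and 10.42 in the wild type and 9.90, 10.05 and 10.37 in the knockout. The lowest value came from replicate 1 of the wild type on the high-fat diet, and 4 of the 6 high-fat arrays lay below every standard-diet array. The residual SD was 0.331, above that of 98.1% of genes. The genotype difference was -0.02 on the standard diet (SE 0.211, limma adjusted p = 0.978) and 0.08 on the high-fat diet (SE 0.211, limma adjusted p = 1.00).

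**Figure D2:**
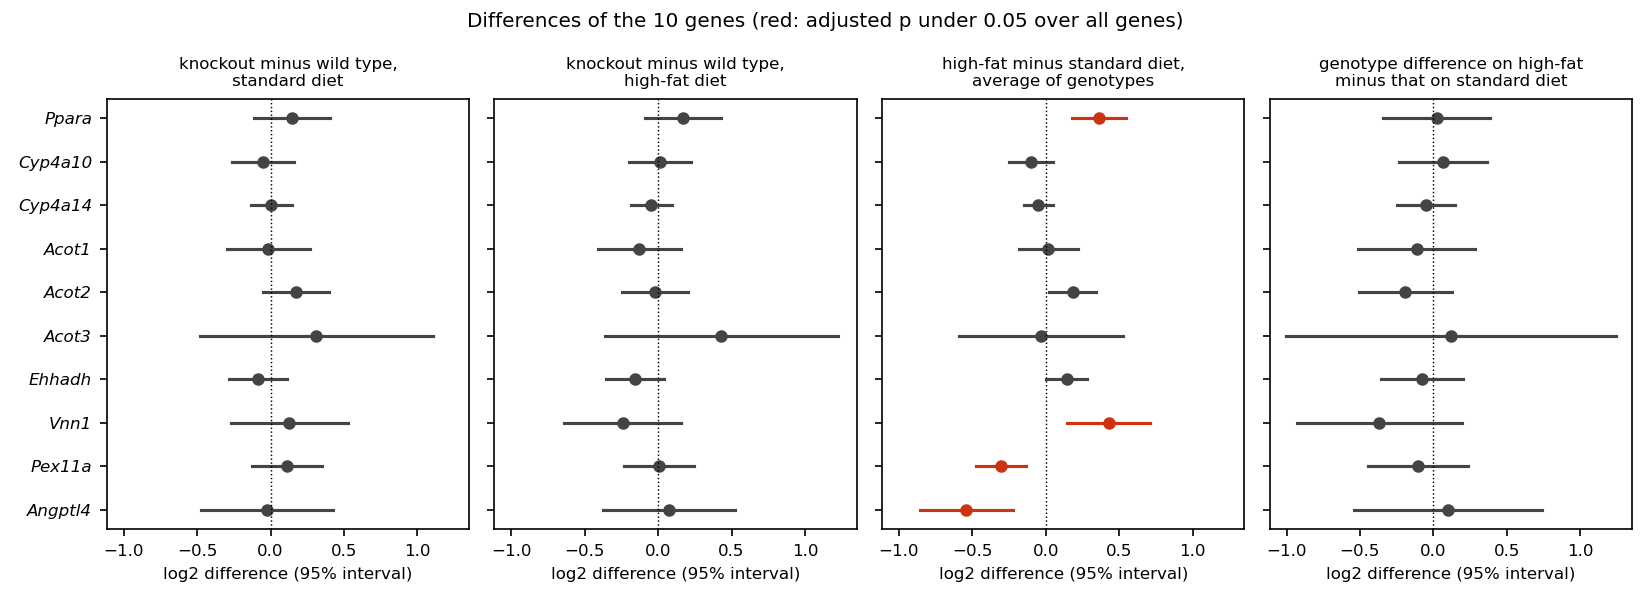
Log2 differences of the 10 genes, with 95% intervals from the fit over all genes. Shown are the genotype difference on each diet and the diet difference averaged over the genotypes. The last panel is the genotype difference on the high-fat diet minus that on the standard diet. The intervals of both genotype comparisons cross 0 for every gene, and the widest are those of Acot3.

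Diet was compared within each genotype and averaged over both. Receptor and pantetheinase rose on the high-fat diet, while Pex11a and Angptl4 fell. Averaged over the genotypes, 4 of 10 members were called, which is 40% beside 18.0% of all genes (10.3% higher and 7.69% lower). Ppara rose by 0.36 (1.29-fold, SE 0.0855, limma adjusted p = 0.00988) and Vnn1 rose by 0.43 (1.35-fold, SE 0.132, limma adjusted p = 0.0363). Pex11a fell by 0.31 (SE 0.0791, limma adjusted p = 0.0162), which is 1.24-fold lower, and Angptl4 fell by 0.54 (SE 0.149, limma adjusted p = 0.0226), which is 1.45-fold lower. The other 6 genes did not pass, and their differences ran from -0.10 for Cyp4a10 to 0.18 for Acot2. The median over the 10 genes was -0.01, beside 0.01 over all genes.

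These 4 calls rest on diets that may lie in separate runs. A variance for an offset between runs was then added, with an SD of 0.214 taken from 1233 chemosensory receptor genes. The same SD was used for every gene, and whether it holds at the levels of the 10 genes was not tested. With it 0 of 10 members were called, and each of the 4 had a limma adjusted p of 1.00. Only 9 of all 19938 genes were called under this setting, so the count is not particular to the 10 genes. Among those receptor genes, 11.3% were called between diets in the wild type and 7.62% in the knockout, beside 5.99% and 5.11% of all genes.

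Single arrays also mattered. Ppara and Pex11a kept their call whichever array was left out. Angptl4 lost its call without replicate 1 (limma adjusted p = 0.0502) or 3 (0.0511) of the wild type on the standard diet, replicate 2 of the knockout on that diet (0.0519), or replicate 1 of the knockout on the high-fat diet (0.0520). Vnn1 lost its call without any one of 8 arrays. These were, with limma adjusted p, wild-type standard-diet replicates 1 (0.0738) and 3 (0.0788), knockout standard-diet replicates 2 (0.0545) and 3 (0.0582), wild-type high-fat replicates 1 (0.0764) and 2 (0.0710), and knockout high-fat replicates 2 (0.0671) and 3 (0.0770). The Vnn1 difference ran from 0.30 without replicate 2 of the standard-diet knockout to 0.57 without replicate 1 of it. Without wild-type standard-diet replicate 1 or 3, or knockout standard-diet replicate 2, the count of called members was 2. Over all 19938 genes the counts in the same order were 2703, 2746 and 3128, beside 3582 in the main fit. Vnn1 also lost its call with genes above the median level alone (limma adjusted p = 0.0510), with median centring (0.0676) and with all probe sets (0.0755), and Angptl4 lost it with all probe sets (0.0548).

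Some markers of other cell types also differed between the diets. Of 10 lymphocyte and NK cell markers, 4 rose in the wild type and 4 on average (medians 0.33 and 0.20), and 0 were called in the knockout. Of all genes, 5.99% were called in the wild type and 5.11% in the knockout, and 10.3% rose on average. In the wild type 2 of the 10 went down, Cd8a from 6.50 to 6.20 and Cd4 from 5.64 to 5.54. Some were dim, such as Klrb1c at 3.71 and Ms4a1 at 4.31 in the standard-diet wild type. The mean level of the 10 markers lay between 5.32 and 5.37 on wild-type and 5.41 and 5.55 on knockout arrays of the standard diet, against 5.53 to 5.73 and 5.42 to 5.70 on the high-fat diet. Of 9 endothelial and 9 stellate cell markers, 2 each rose on average, which is 22.2% beside 10.3% of all genes. The endothelial mean ran from 8.51 to 8.59 on the standard diet, and from 8.65 to 8.76 in the wild type and 8.57 to 8.67 in the knockout on the high-fat diet. The stellate mean ran from 7.64 to 7.85 on the standard diet, and from 7.92 to 8.05 and 7.76 to 7.94 on the high-fat diet. Of 11 macrophage and Kupffer cell markers 0 were called, and their mean lay 0.59 above the wild-type standard-diet mean on replicate 3 of the high-fat wild type. The part of these markers in the diet differences of the 10 genes was not tested.

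Within the wild type alone 0 of 10 members were called between diets (5.99% of all genes), and within the knockout 0 of 10 (5.11% of all genes). At an unadjusted p under 0.05 there were 5 of 10 in the wild type and 3 of 10 in the knockout, beside 22.6% and 21.6% of all genes. In the wild type, Ppara, Acot2 and Vnn1 lay above and Angptl4 below without overlap, where 30.3% of all genes had diets that did not overlap. Cyp4a14 and Pex11a lay below without overlap in the knockout, where 23.8% did. The wild-type differences were 0.35 for Ppara, 0.61 for Vnn1, -0.25 for Pex11a and -0.59 for Angptl4, and the knockout differences were 0.37, 0.25, -0.36 and -0.49 in the same order. Both comparisons take their means from different arrays but share an estimate of the spread over all groups. Arrays of the knockout therefore also enter the test in the wild type, and the reverse. The wild-type difference of Angptl4 was -0.29 without replicate 1 of the high-fat wild type. Without replicate 1 of the standard-diet knockout, Vnn1 was called in the wild type (limma adjusted p = 0.0104), and without replicate 2 of that group too (limma adjusted p = 0.0177). Ppara was called in the knockout without its standard-diet replicate 3 (limma adjusted p = 0.0428) or its high-fat replicate 1 (limma adjusted p = 0.0323). Leaving out replicate 1 of the standard-diet knockout together with replicate 3 of the high-fat wild type gave 2 calls in the wild type, Vnn1 (0.69, limma adjusted p = 0.0104) and Angptl4 (-0.79, limma adjusted p = 0.0307), and 1 in the knockout, Vnn1 (0.52, limma adjusted p = 0.0427).

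The interaction asks whether the diet difference itself differed between genotypes. With limma 0 of 10 members were called (0.00% of all genes), and 0 of 10 passed an unadjusted p under 0.05, beside 4.73% of all genes. The largest difference by size was that of Vnn1, -0.37 (SE 0.264, limma adjusted p = 0.945), and without replicate 2 or 1 of the standard-diet knockout it was -0.63 or -0.09. Intervals lay within a 1.5-fold change for 7 of 10 genes. For Acot3, Vnn1 and Angptl4 they reached further.

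Correlations between members were taken over 12 arrays after subtraction of the group means, with exact permutation within groups (1296 arrangements, two-sided) and adjustment over all 45 pairs. Acot3 and Vnn1 had Pearson r = 0.96 (exact p = 0.0116, adjusted p = 0.174) and Spearman rho = 0.82 (exact p = 0.0108, adjusted p = 0.243). Without the 2 arrays farthest from the median r was 0.76, and over the 9 arrays outside the standard-diet knockout it was 0.85. Acot1 and Acot2, neighbours on chromosome 12, had r = 0.88 (exact p = 0.010, adjusted p = 0.174) and rho = 0.82 (exact p = 0.010, adjusted p = 0.243), with r = 0.76 without the 2 farthest arrays and 0.73 without the standard-diet knockout. No pair passed the adjustment.

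**Figure D3:**
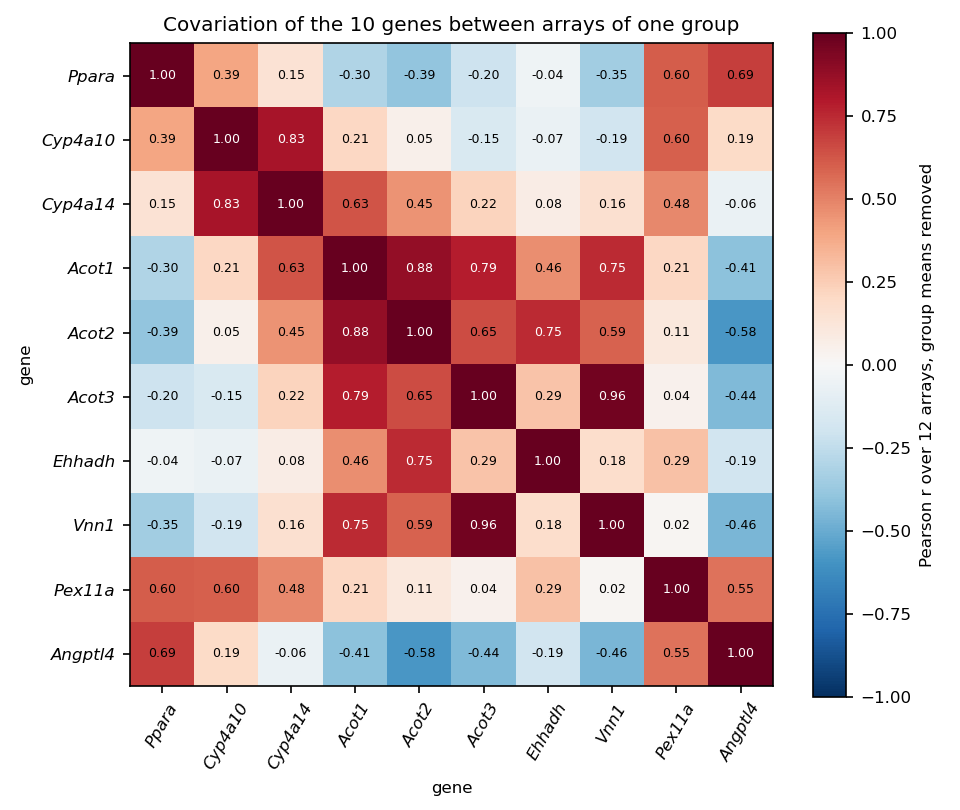
Pearson r between each pair of the 10 genes over 12 arrays, after the mean of each group was subtracted. Acot1, Acot2, Acot3 and Vnn1 form a block of r from 0.59 to 0.96, and Angptl4 has r = 0.69 with Ppara. No pair passed the adjustment. Without the standard-diet knockout, Acot2 had r = -0.02 with Acot3 and -0.05 with Vnn1. Acot1 then had 0.34 with Acot3 and 0.42 with Vnn1, while Acot1 with Acot2 had 0.73 and Acot3 with Vnn1 had 0.85.

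Ppara and Angptl4 had r = 0.69 (exact p = 0.00231, adjusted p = 0.104) and rho = 0.68 (exact p = 0.0201, adjusted p = 0.301), with r = 0.59 without the 2 farthest arrays. Between the diets these genes moved in opposite directions. Cyp4a10 and Cyp4a14 had r = 0.83 (exact p = 0.0887, adjusted p = 0.413) and rho = 0.52 (exact p = 0.206, adjusted p = 0.713), with r = 0.61 without the 2 farthest arrays. Acot1 and Acot3 had r = 0.79 (exact p = 0.0494, adjusted p = 0.413) and rho = 0.66 (exact p = 0.0880, adjusted p = 0.495), which fell to 0.42 without the 2 farthest arrays and to 0.34 without the standard-diet knockout, so that this relation rests on that group. Relative to its group mean, the mean of the 10 genes ran from -0.23 on knockout standard-diet replicate 2 to 0.13 on replicate 3 of that group.

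**Figure D4:**
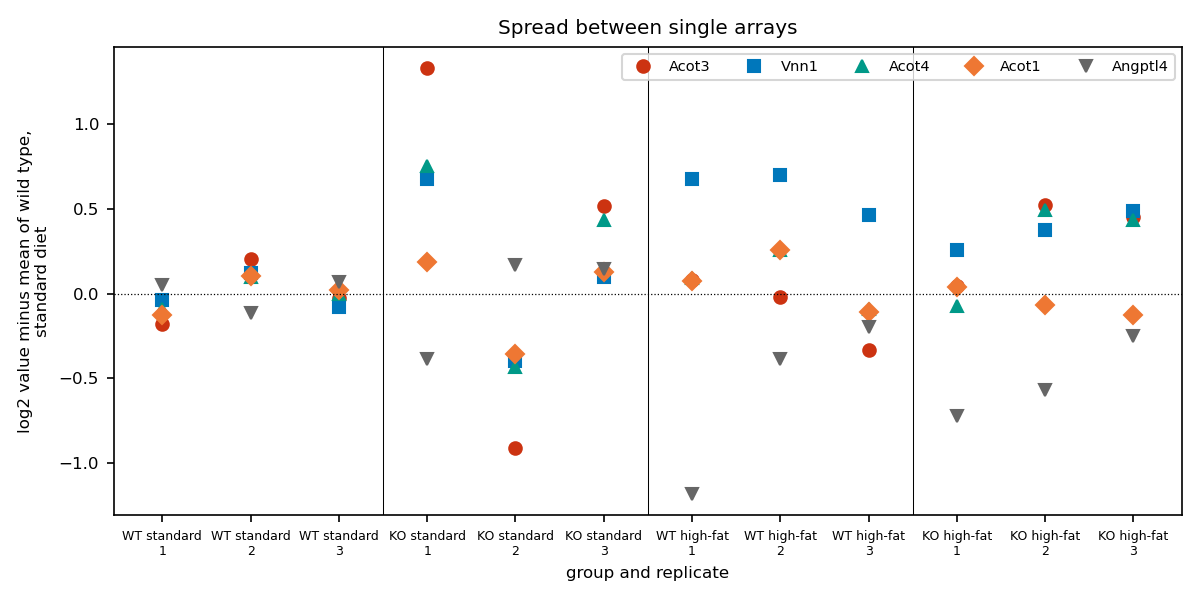
Log2 value minus the wild-type standard-diet mean for Acot3, Vnn1, Acot1, Angptl4 and the neighbouring gene Acot4, on each of the 12 arrays. Acot3, Vnn1 and Acot4 are high on replicate 1 of the standard-diet knockout and low on its replicate 2, and Angptl4 is lowest on replicate 1 of the high-fat wild type.

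The program was also read from 67 further PPAR-alpha targets on a list of 75. Between genotypes 0 of 67 were called on either diet, with medians of -0.02 on both, beside 0.04 and -0.02 over all genes. Leaving out 1 array gave 2 calls on the standard diet without replicate 3 of the knockout, and none otherwise in either diet. Of all 19938 genes, 6 were called on the standard diet without that array. Cidec, a lipid droplet protein, had the smallest p on the standard diet, at -0.82 (SE 0.187, limma adjusted p = 0.485), followed by the sulfotransferase Sult2a8 at -0.85 (SE 0.215, limma adjusted p = 0.502). Averaged over the genotypes, 9 of 67 targets rose and 9 fell on the high-fat diet, 26.9% in all beside 18.0% of all genes. Within the wild type 5 rose and 3 fell (11.9%, beside 5.99% of all genes), and within the knockout 5 rose and 5 fell (14.9%, beside 5.11%). The wild-type total of 8 was 3 without standard-diet replicate 1 or 2 or high-fat replicate 1 or 2 of the wild type. It was 4 without standard-diet replicate 3 of the wild type and 5 without high-fat replicate 2 of the knockout. Over all 19938 genes the wild-type counts in the same order were 508, 447, 389, 733, 435 and 940, beside 1194 in the main fit. The knockout total of 10 was 5 without high-fat replicate 2 of the knockout, where 360 of all genes were called, beside 1018. In the interaction 0 of 67 were called, and 1 without replicate 3 of the standard-diet knockout. Of all 19938 genes, 1 was called in the interaction without that array.

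Targets that rose were led by the fatty acid transporter Cd36, by 1.89 (SE 0.135, limma adjusted p = 1.57e-06), then Krt23, a keratin, by 1.31 (SE 0.130, limma adjusted p = 3.42e-05). Cyp4a12b, an omega-hydroxylase related to the Cyp4a members and a male-biased gene, rose by 1.03 (SE 0.262, limma adjusted p = 0.0151), and by 0.68 without replicate 1 of the standard-diet knockout, the array with low male-biased genes. Of those that fell, Pdk4, which restrains pyruvate oxidation, fell by 1.27 (SE 0.237, limma adjusted p = 0.00258). The lipid droplet proteins Plin5 and Cidec fell by 0.70 and 0.54, with SEs of 0.103 and 0.132 (limma adjusted p = 0.000571 and 0.0124). These 6 kept their call whichever single array was left out, and Cyp4a12b lost it under robust moderation (limma adjusted p = 0.0723). With the offset variance between runs only Cd36 among the 67 was called (limma adjusted p = 0.0130). Of the genomic neighbours of the members, Cyp4a31, Acot4, Acot5 and Acot6 were called in none of the 6 comparisons. Cyp4a12b, which lies near Cyp4a14, was called between diets on average, as given above, and in the knockout (1.42, limma adjusted p = 0.0407). Its call in the knockout was lost without any one of 7 arrays.

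**Figure D5:**
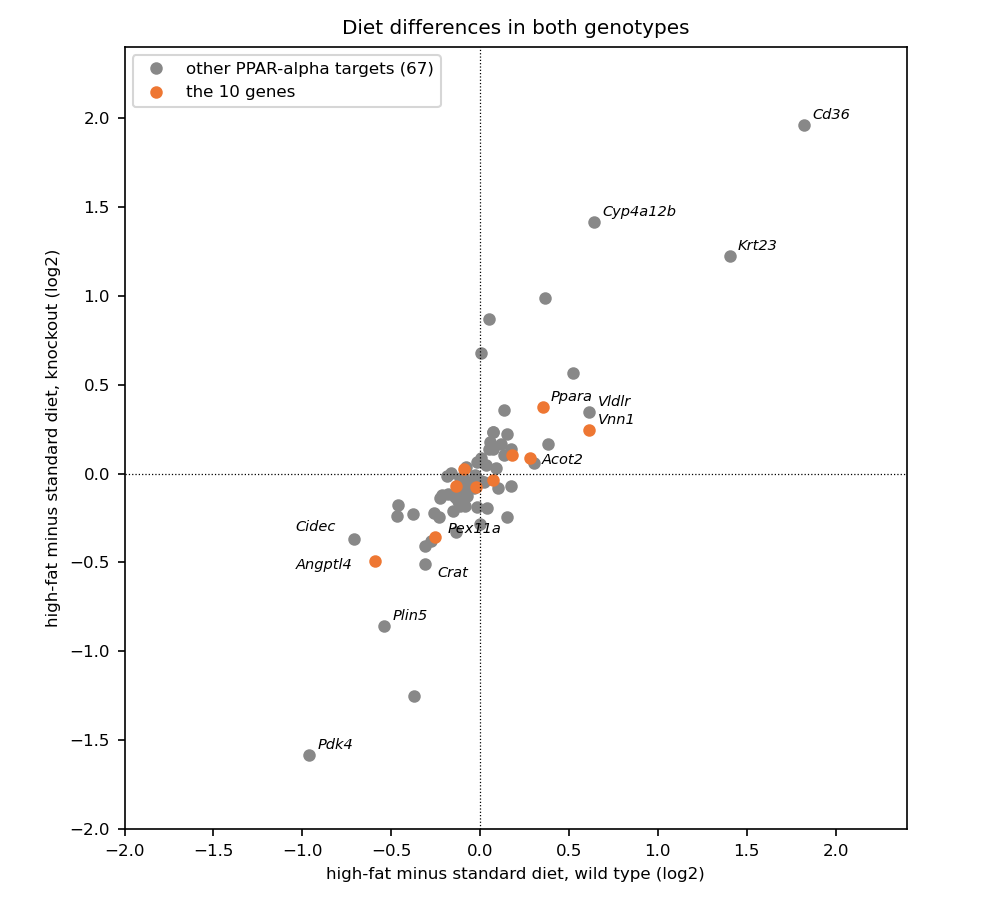
High-fat minus standard diet in the wild type (x axis) and the knockout (y axis), log2, for the 10 genes and 67 further PPAR-alpha targets. Cd36, Krt23 and Pdk4 lie farthest from 0, and Ppara, Vnn1, Pex11a and Angptl4 lie nearer to it.

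Among 30 genes for partners and coregulators of the receptor, 0 were called between genotypes on either diet. Averaged over the genotypes, 3 rose on the high-fat diet and 1 fell, 13.3% in all beside 18.0% of all genes. Without replicate 1 of the standard-diet knockout 7 were called in all, where 3057 of all 19938 genes were called, beside 3582 in the main fit. The related receptor gene Pparg rose by 0.50 (SE 0.0823, limma adjusted p = 0.00118), the coactivator gene Ppargc1b by 0.45 (SE 0.0875, limma adjusted p = 0.00342) and the clock repressor gene Nr1d1 by 0.87 (SE 0.270, limma adjusted p = 0.0372). The oxysterol receptor gene Nr1h3 fell by 0.29 (SE 0.0646, limma adjusted p = 0.00715). Of 7 fasting genes of glucose production and insulin action, 0 were called between genotypes, and 2 fell on the high-fat diet, 28.6% beside 7.69% of all genes that fell. The count was 4 without replicate 1 of the high-fat wild type, where 2687 of all 19938 genes were called. Igfbp1, whose product binds insulin-like growth factors, fell by 1.27 (SE 0.265, limma adjusted p = 0.00540), and Tat, tyrosine aminotransferase, fell by 0.39 (SE 0.103, limma adjusted p = 0.0181). Nr1d1 lost its call without any one of 7 arrays, with limma adjusted p from 0.0519 to 0.0883, and with the offset variance between runs 0 genes of these lists were called.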

How the data were processed

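RNA of 12 liver samples, 3 per genotype and diet, was labelled by an Affymetrix whole transcript protocol, per the labels. The deposited values are log2 intensities that the authors computed in Affymetrix Expression Console (RMA), per the submitters' processing notes; versions and genome build are not given in the sources used here. Of 35557 probe sets, 21789 carried 1 gene symbol, and the brightest per gene was kept, leaving 19938 genes. Groups came from the labels. A limma 3.58.1 model (R 4.3.3, empirical Bayes with intensity trend, 4 group means, 12 arrays) gave 6 comparisons, with p adjusted over all genes by Benjamini and Hochberg, called under 0.05 and tested on simulated data. Named genes were all members and, per list and comparison, at most 3 called genes each way, or 2 with the smallest p. Members and lists were chosen with earlier results of these data known. Alternatives changed the moderation, weights, groups fitted, block, filter, normalization, threshold and single arrays; those of 2 arrays left out together and of an offset variance between runs came from earlier results, and all on list genes were added after the data were seen. Figures used matplotlib 3.10.9.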

Additional observations from a re-analysis of the deposited data

How the results depend on the processing

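The comparisons of genotype and the interaction had 0 called members under every alternative run, each array left out included. At most 6 of all genes were called in any of these. Between diets in the wild type, array weights called 5 members, a fit of the groups compared, quantile normalization, a threshold of 0.10 and the omission of 2 arrays (below) called 2 each, and leaving out single arrays called 0 to 1. Over all 19938 genes the counts in the same order were 3632, 1280, 1223, 2214 and 933, beside 1194 in the main fit. Without single arrays they ran from 389 to 1322. In the knockout, array weights, quantile normalization and the threshold of 0.10 called 2 each, the omission of those 2 arrays called 1, and leaving out single arrays called 0 to 1. Over all genes the counts in this order were 2016, 1532, 1926 and 625, beside 1018 in the main fit, and 360 to 1286 without single arrays. Averaged over genotypes, a fit of all probe sets called 2, a threshold of 0.01 called 1, the offset variance between runs called 0, and leaving out single arrays called 2 to 4. The full counts were 4421 of 35222 probe sets, and 1519, 9 and 2644 to 3519 of all genes, beside 3582 in the main fit. Of the further targets, 15 were called in the wild type with array weights, 13 at 0.10, 4 with all probe sets, 3 above the median level or at 0.01, and 1 with the offset variance. The last 4 of these settings called 967 of 35222 probe sets, 346 of 9969 genes, and 274 and 7 of 19938 genes. Counts of the further targets in the knockout were 5 with the groups compared only or at 0.01 and 1 with the offset variance, and averaged they were 29, 9 and 1 with array weights, at 0.01 and with the offset variance. Over all genes the knockout counts were 381, 232 and 5, and the averaged counts 5264, 1519 and 9. The fasting genes averaged gave 4 with array weights or at 0.10 and 1 at 0.01, where 5264, 5096 and 1519 of all genes were called.

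Deviations of same-numbered arrays correlated between -0.21 and 0.41 over the 4 comparisons, and those of differently numbered arrays between -0.40 and 0.33. Within the knockout the ranges between diets were 0.027 to 0.41 and -0.40 to 0.17. Since not every pair was over 0.1, the numbers were not taken to pair the samples. With the replicate block Ppara was called between diets in the wild type (limma adjusted p = 0.0291) and in the knockout (0.0239), 1 member in each. Averaged over genotypes, Acot2 was called with array weights (0.0443) and without the 2 arrays named next (0.0492). The 2 arrays left out together are replicate 1 of the standard-diet knockout and replicate 3 of the high-fat wild type. They were known from an earlier analysis of these data, as the highest of the standard-diet knockout in acute-phase genes and of the high-fat wild type in acute-phase and macrophage genes. The cause of these changes was not tested.

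Members whose differences lay near 0 turned sign under some alternatives, and none of these values was called. With array weights the values were -0.0021 for Cyp4a14 between genotypes on the standard diet, -0.0085 for Cyp4a10 and -0.0054 for Pex11a between genotypes on the high-fat diet, 0.011 for Acot3 between diets in the wild type, 0.026 for Acot3 between diets on average. With quantile normalization the values were 0.019 for Acot1 and 0.019 for Angptl4 between genotypes on the standard diet, 0.026 for Cyp4a14 between diets in the wild type. With median centring the values were -0.074 for Cyp4a14 between genotypes on the standard diet, -0.0063 for Acot1 between diets in the wild type, -0.016 for Acot1 between diets on average, 0.043 for Cyp4a14 and 0.019 for Ehhadh in the interaction. With those 2 arrays left out the values were 0.033 for Cyp4a10, -0.20 for Acot3, -0.15 for Vnn1 and 0.16 for Angptl4 between genotypes on the standard diet, -0.083 for Cyp4a10 and -0.023 for Pex11a between genotypes on the high-fat diet, 0.014 for Cyp4a14 and 0.029 for Acot3 between diets in the wild type, 0.062 for Acot1 between diets in the knockout, 0.28 for Acot3 between diets on average, -0.054 for Ppara and -0.12 for Cyp4a10 in the interaction.

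Leaving out single arrays turned the sign of 25 of 108 differences at least once. Between genotypes on the standard diet the ranges ran from -0.11 to 0.16 for Acot1, from -0.20 to 0.92 for Acot3, from -0.12 to 0.16 for Angptl4, from -0.14 to 0.033 for Cyp4a10, from -0.021 to 0.021 for Cyp4a14 and from -0.15 to 0.39 for Vnn1. Between genotypes on the high-fat diet the ranges ran from -0.094 to 0.025 for Acot2, from -0.22 to 0.27 for Angptl4, from -0.083 to 0.10 for Cyp4a10, from -0.091 to 0.091 for Pex11a and from -0.25 to 0.054 for Tat. Between diets in the wild type the ranges ran from -0.017 to 0.16 for Acot1, from -0.18 to 0.029 for Acot3 and from -0.066 to 0.014 for Cyp4a14. Between diets in the knockout the ranges ran from -0.21 to 0.062 for Acot1, from -0.024 to 0.15 for Acot2, from -0.59 to 0.54 for Acot3, from -0.15 to 0.018 for Cyp4a10 and from -0.016 to 0.52 for Vnn1. Between diets on average the ranges ran from -0.068 to 0.068 for Acot1 and from -0.34 to 0.22 for Acot3. In the interaction the ranges ran from -0.49 to 0.63 for Acot3, from -0.20 to 0.29 for Angptl4, from -0.031 to 0.15 for Cyp4a10 and from -0.088 to 0.14 for Ppara.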

Other observations

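Deviations from the group means over all 12 arrays were set against those of 9621 candidate genes. Differences between genotypes or diets are therefore no part of this likeness, which compares the spread within groups and is given as a description. Ppara was most like Ap3m1 (r = 0.98), Eya3 (r = 0.98), Serpina1c (r = 0.97), Brpf3 (r = 0.97) and Nup62 (r = 0.97). Cyp4a14 was most like Srpk1 (r = 0.98), Paf1 (r = 0.97), Pdcd4 (r = 0.97), Fahd1 (r = 0.96) and Cdh2 (r = 0.96). The mean of the 10 genes was most like Tfcp2 (r = 0.98), Plg (r = 0.97), Iigp1 (r = 0.95), Lyar (r = 0.94) and Acaca (r = 0.93).

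The omega-hydroxylase relatives of the members, Cyp4a12a and Cyp4a12b, are male-biased in mouse liver. Their standard-diet means were 12.15 and 12.22 in the wild type and 11.48 and 11.29 in the knockout, and neither difference was called (limma adjusted p = 0.506 and 0.502). The knockout means rest on its replicate 1, which read 10.35 and 9.91. Without that array, an alternative chosen after seeing the data, the knockout means were 12.04 and 11.97 and the differences -0.12 and -0.25. Averaged over genotypes Cyp4a12a rose on the high-fat diet by 0.68 (SE 0.215, limma adjusted p = 0.0419), and by 0.40 without that array (SE 0.0580, limma adjusted p = 0.000746).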
